A study of Mus musculus with 6 samples.

Results

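Trp53, which encodes the transcription factor p53, and 9 of its canonical target genes were followed in 4T1 cells, a mouse mammary carcinoma line. The 10 genes were chosen by symbol, and all 10 were among the 31017 genes counted and among the 12076 that passed the filter on low counts. The series compared 3 control libraries, from 4T1 cells that received Cas9 and control guides by nucleofection, with 3 ETV4 KO libraries, from 4T1 cells that received Cas9 and guides against Etv4, a PEA3-type member of the ETS transcription factors. Both groups were then grown in 3D gels of collagen I, and poly(A) RNA was sequenced after the gels had been digested with collagenase. The ETV4 KO libraries share the single library code c39, which the labels do not explain, and the control libraries share the code sgCTRL. Nothing states whether replicates came from separate cultures, so p-values reflect the variation among these libraries alone, and it may be technical.

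p53 is held low in unstressed cells by the ubiquitin ligase MDM2, which is itself a p53 target, so that the pair form a feedback loop. DNA damage and oncogenic stress release p53, which then binds response elements built of paired half-sites and activates genes for cell cycle arrest, apoptosis, DNA repair and metabolism. The 4T1 line is usually described as lacking functional p53 protein. The counts measure the transcript level and neither the protein nor its activity.

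The data show a lower Trp53 transcript level in ETV4 KO and no common direction among its targets. Trp53 fell 1.39-fold. Of the 9 targets, the pro-apoptotic gene Bax rose 1.46-fold and Phlda3 and Xpc fell 1.61-fold and 1.62-fold, while the others differed by at most 0.15 on the log2 scale. At an adjusted p under 0.05, 2 targets rose, 4 fell and 3 did not pass. Over all tested genes 71.1% passed, with 35% higher and 36% lower in ETV4 KO, so the 66.7% of targets that passed lay near the background. When the median change of neighbouring genes was taken out, Trp53 went from -0.48 to -0.12 in log2 fold change, Mdm2 no longer passed, the directions of Ccng1, Cdkn1a and Zmat3 turned, and Sesn1 passed; 3 targets were then higher and 3 lower, where 30.5% and 34.2% of all tested genes were.

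Shown first are windows around the transcription starts of 4 of the members that hold letters of the p53 half-site. RefSeq (GRCm38.p6) gave 12 windows, from 250 bases before to 50 after a start, for 8 of the 10 members; Xpc and Zmat3 had no entry. The p53 half-site consensus, which reads the same on both strands, was found in 6 of the 12 windows, 1 each for Trp53, Mdm2, Ccng1, Cdkn1a, Bax and Sesn1, and in 8.36% of all 32851 windows. Of the Bbc3 windows, a pair overlap. Capitals mark half-sites, and in the Mdm2 window also the ETS core CCGGAA on the opposite strand.
Trp53 (chr11:69580109-69580408, plus strand): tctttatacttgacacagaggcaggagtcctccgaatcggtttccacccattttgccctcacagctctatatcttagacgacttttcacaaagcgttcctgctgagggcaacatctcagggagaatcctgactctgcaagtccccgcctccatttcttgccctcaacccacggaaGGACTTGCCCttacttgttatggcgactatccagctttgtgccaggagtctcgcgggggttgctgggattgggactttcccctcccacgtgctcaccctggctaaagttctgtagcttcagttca
Mdm2 (chr10:117710709-117711008, minus strand): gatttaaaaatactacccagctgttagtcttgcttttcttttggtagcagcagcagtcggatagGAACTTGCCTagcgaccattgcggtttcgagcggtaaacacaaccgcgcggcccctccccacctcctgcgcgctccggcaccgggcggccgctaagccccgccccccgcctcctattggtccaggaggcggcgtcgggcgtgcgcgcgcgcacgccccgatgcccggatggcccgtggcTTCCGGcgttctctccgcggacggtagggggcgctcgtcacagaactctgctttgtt
Cdkn1a, upstream start (chr17:29090729-29091028, plus strand): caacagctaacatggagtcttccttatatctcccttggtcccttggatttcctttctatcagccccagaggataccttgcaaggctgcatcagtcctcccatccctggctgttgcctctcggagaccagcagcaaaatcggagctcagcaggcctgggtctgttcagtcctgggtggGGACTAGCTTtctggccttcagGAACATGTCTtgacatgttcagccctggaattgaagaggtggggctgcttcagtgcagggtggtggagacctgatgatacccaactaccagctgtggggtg
Bax (chr7:45466849-45467148, minus strand): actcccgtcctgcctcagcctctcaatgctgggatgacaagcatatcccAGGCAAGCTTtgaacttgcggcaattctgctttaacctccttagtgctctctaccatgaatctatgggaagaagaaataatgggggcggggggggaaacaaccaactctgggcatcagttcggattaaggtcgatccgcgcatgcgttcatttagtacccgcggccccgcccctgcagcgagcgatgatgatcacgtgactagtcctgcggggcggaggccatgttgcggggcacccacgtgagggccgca

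The Cdkn1a window was the only one of the 12 with a pair of exact half-sites close enough to form a full site, with 12 bases between them. A full site, allowing 0 to 13 bases between half-sites, occurred in 0.0731% of all windows. Half-sites with a mismatch were not searched for. The bases right after GAACATGTCT in the Cdkn1a window miss the consensus at 1 base only, so the pair given need not be the element that p53 binds. The half-site began 75 bases before the start of Trp53, 186 before that of Mdm2 and 201 before that of Bax. The core CCGGAA, searched on both strands, was found in 1 of the 12 windows and in 14.9% of all windows. These matches describe the letters in the windows only. Members with a half-site went both ways in the comparison below: Trp53, Mdm2 and Ccng1 fell, Bax and Cdkn1a rose, and Sesn1 did not pass.

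The libraries held 22355015 to 29042569 counts, and the 10 members had 333 to 3084 counts per library. Etv4 itself, given as the targeted gene, had 134 CPM ± 0.752 (SD, n = 3) in controls and 89.8 CPM ± 2.44 (SD, n = 3) in ETV4 KO, where CPM is the count relative to library size, with TMM scaling, which corrects for differences in library composition. Its log2 fold change was -0.58 (SE 0.036), and such whole-gene counts leave unseen what the guides did to the protein. Etv4 lies on chromosome 11, where the 101 other expressed genes of its 10 Mb bin had a median of -0.46. Their 5th to 95th percentile ran from -0.97 to 0.13, so the fall of Etv4 lay within the range of its neighbours. Markers of mammary carcinoma epithelium summed to 5991 to 6152 CPM in controls and 4308 to 4513 CPM in ETV4 KO, mostly from Krt8 and Krt18. Of 9 tested markers 7 were lower and 1 higher, beside 36% and 35% of all tested genes. Their log2 fold changes ran from -5.92 for Cldn7 to 0.13 for Krt19, and Krt7, with -0.05, did not pass. Krt5 had 1 count per group. The 9 fibroblast markers summed to 10.1 to 11.9 CPM and 13.05 to 14.6 CPM, nearly all from Pdgfra, the 9 leukocyte markers to 9.83 to 10.5 CPM and 9.41 to 11.4 CPM, nearly all from Cd68, and the 6 endothelial markers to at most 0.604 CPM in any library. Lum, Thy1, Adgre1, Cd3e, Lyz2 and Emcn had 0 counts. The part of the epithelial shift in the results was not tested.

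Trp53 (chromosome 11, 69580359 to 69591873 in mm10) had 116, 114 and 116 CPM in control replicates 1, 2 and 3 and 82.8, 80.0 and 85.2 CPM in ETV4 KO replicates 1, 2 and 3. Each ETV4 KO library lay below each control library, and the gap between the groups was wider than the spread within either. The means were 115 CPM ± 1.15 and 82.7 CPM ± 2.62 (n = 3 each, SD), or -0.48 in log2 fold change (edgeR adjusted p = 1.67e-12, SE 0.037). In bulk RNA, fewer cells that express a gene and less of its RNA per cell cannot be told apart. The fall lay within the range of its neighbours: over the 764 expressed genes on chromosome 11 the median log2 fold change was -0.38, and the 83 other expressed genes of its 10 Mb bin had a median of -0.36, with a 5th to 95th percentile of -0.96 to 0.07. With that bin median subtracted from the ETV4 KO side as an offset, Trp53 had -0.12 (edgeR adjusted p = 0.0074, SE 0.037). That p, like every other p given here with a bin offset, takes the bin median as known and leaves out the spread of the neighbours. A processed pseudogene of Trp53 is annotated on chromosome 17, so reads that fit both are uncertain.

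Wrap53 starts beside Trp53 on the opposite strand and encodes a protein of Cajal bodies and telomerase. It had 340, 380 and 286 counts in controls and 309, 232 and 218 in ETV4 KO, or -0.49 in log2 fold change (edgeR adjusted p = 8.21e-06, SE 0.085), close to that of Trp53. The tested genes with at least 100 counts on average whose 6 centred log2 CPM values lay nearest to those of Trp53 were 4933427D14Rik, Mybbp1a and Fubp1, with root mean square differences of 0.0148, 0.0168 and 0.0178 among 9820 genes compared. In that order these genes had -0.46, -0.48 and -0.47 in log2 fold change, near that of Trp53, and such nearness mostly reflects the difference between the groups. The first 2 of these genes also lie on chromosome 11.

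**Figure D1:**
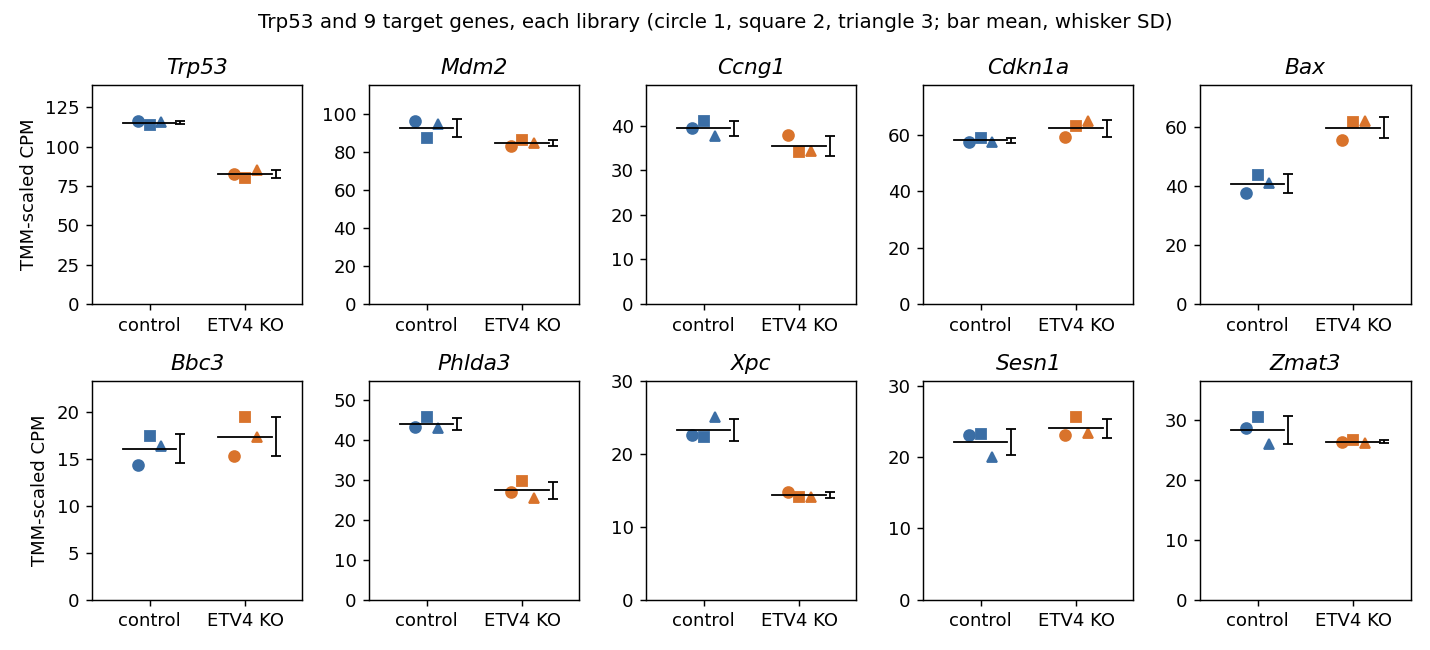
TMM-scaled CPM (vertical axes, from 0) of Trp53 and its 9 targets in each library, with circles, squares and triangles for replicates 1, 2 and 3, black bars for the mean and whiskers for the SD of 3 libraries. Trp53, Phlda3 and Xpc lie lower and Bax higher in every ETV4 KO library, whereas the groups overlap for Ccng1, Bbc3, Sesn1 and Zmat3.

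The feedback genes were slightly lower. Mdm2 (chromosome 10, 117688875 to 117710758), the ligase that marks p53 for degradation, had 96.1, 87.5 and 94.5 CPM in controls and 83.3, 86.4 and 84.8 CPM in ETV4 KO. The groups did not overlap, although control replicate 2 lay close to ETV4 KO replicate 2. The means were 92.7 CPM ± 4.57 and 84.8 CPM ± 1.56 (n = 3 each, SD), or -0.13 in log2 fold change (edgeR adjusted p = 0.00617, SE 0.040). With its 10 Mb bin median of -0.06 as an offset, Mdm2 did not pass (-0.07, edgeR adjusted p = 0.124).

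Ccng1 (chromosome 11, 40748552 to 40755311) encodes cyclin G1, which brings phosphatase PP2A to MDM2. Its values were 39.6, 41.0 and 37.7 CPM in controls and 38.0, 34.1 and 34.3 CPM in ETV4 KO. ETV4 KO replicate 1 lay above control replicate 3, so the groups overlapped. The log2 fold change was -0.15 (edgeR adjusted p = 0.0119, SE 0.053), and the call was lost without control replicate 2 (edgeR adjusted p = 0.075) and without ETV4 KO replicate 3 (edgeR adjusted p = 0.0691). The other 22 expressed genes of its bin had a median of -0.34, and with that as an offset the direction turned, to 0.19 (edgeR adjusted p = 0.00319).

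Cdkn1a (chromosome 17, 29090976 to 29100727), which encodes the cyclin-dependent kinase inhibitor p21 and is the main p53 target in cell cycle arrest, had 57.7, 59.0 and 57.5 CPM in controls and 59.2, 63.3 and 64.9 CPM in ETV4 KO. The groups did not overlap, but ETV4 KO replicate 1 was barely above the highest control. The means were 58.1 CPM ± 0.821 and 62.5 CPM ± 2.95 (n = 3 each, SD), or 0.10 in log2 fold change (edgeR adjusted p = 0.0389, SE 0.044). Apart from the bin offset, this call was kept in 5 of 14 alternatives, and it was lost when any library other than ETV4 KO replicate 1 was left out, with edgeR adjusted p-values of 0.0841, 0.0522 and 0.104 without control replicates 1, 2 and 3, and of 0.0789 and 0.18 without ETV4 KO replicates 2 and 3. On chromosome 17 the median over 447 expressed genes was 0.37, and over the 122 others of its bin 0.36; with the bin median as an offset, Cdkn1a was lower, at -0.26 (edgeR adjusted p = 6.18e-06). The 5th to 95th percentile of that bin ran from -0.26 to 0.85, so the fitted 0.10 lay within it. Thus the sign of the Cdkn1a difference depended on this setting.

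Bax (chromosome 7, 45461697 to 45466898) encodes the BCL-2 family protein that opens the mitochondrial outer membrane, and it was the target with the largest rise. It had 37.4, 43.7 and 40.8 CPM in controls and 55.4, 61.6 and 61.7 CPM in ETV4 KO. Every ETV4 KO library lay above every control, and replicate 1 was the lowest of each group. The means were 40.6 CPM ± 3.15 and 59.6 CPM ± 3.61 (n = 3 each, SD), or 0.55 in log2 fold change (edgeR adjusted p = 2.23e-10, SE 0.053). With the median of 0.18 of its bin as an offset the value was 0.37 (edgeR adjusted p = 6.52e-07), and the 5th to 95th percentile of the 61 other genes of the bin was -0.19 to 0.64. The annotated gene Gm45808 overlaps Bax on the same strand and had 0 counts in every library, so how reads in shared exons were counted is uncertain.

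Bbc3 (chromosome 7, 16308393 to 16318205), which encodes the BH3-only protein PUMA, did not follow Bax. Its values were 14.4, 17.4 and 16.4 CPM in controls and 15.3, 19.4 and 17.3 CPM in ETV4 KO. The groups overlapped, and replicate 1 was again the lowest and replicate 2 the highest of each group. The log2 fold change was 0.10 (edgeR adjusted p = 0.274, SE 0.082), and it passed only without ETV4 KO replicate 1 (0.19, edgeR adjusted p = 0.0447) among the 14 alternatives other than the bin offset, which gave 0.06 (edgeR adjusted p = 0.501).

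Phlda3 (chromosome 1, 135766119 to 135769136) encodes a pleckstrin homology domain protein that competes with AKT for membrane lipids. It had 43.3, 45.7 and 42.9 CPM in controls and 26.9, 29.6 and 25.6 CPM in ETV4 KO. All ETV4 KO libraries were well below the controls. The means were 44.0 CPM ± 1.48 and 27.4 CPM ± 2.08 (n = 3 each, SD), or -0.69 in log2 fold change (edgeR adjusted p = 3.38e-12, SE 0.055). Its bin had a median of -0.02, and with it as an offset the value was -0.67.

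Xpc (chromosome 6, 91489305 to 91515888), whose product recognises DNA lesions in global nucleotide excision repair, had a fall of about the size of that of Phlda3. It had 22.5, 22.4 and 25.0 CPM in controls and 14.8, 14.1 and 14.1 CPM in ETV4 KO. The ETV4 KO libraries were close together and all below the controls. The means were 23.3 CPM ± 1.49 and 14.3 CPM ± 0.382 (n = 3 each, SD), or -0.70 in log2 fold change (edgeR adjusted p = 1.47e-10, SE 0.067). Xpc was the 1 member outside the 5th to 95th percentile of the other expressed genes of its bin, which ran from -0.40 to 0.49 over 21 genes with a median of -0.09; with that median as an offset the value was -0.61. Lsm3, an RNA-binding gene that starts beside Xpc on the opposite strand, had -0.26 in log2 fold change (edgeR adjusted p = 0.000132, SE 0.056). The genes nearest to Xpc in their 6 centred log2 CPM values were Lyrm2, Etv5 and Fbxw9, with root mean square differences of 0.0348, 0.0354 and 0.0362. Their log2 fold changes were -0.71, -0.65 and -0.67, near that of Xpc, and such nearness mostly reflects the difference between the groups. Etv5 is a PEA3 relative of Etv4, and whether these genes share regulation was not tested.

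The remaining targets did not pass. Sesn1 (chromosome 10, 41809935 to 41908424) encodes sestrin 1, which restrains mTORC1, and had 23.1, 23.2 and 19.97 CPM in controls and 23.1, 25.6 and 23.3 CPM in ETV4 KO, or 0.12 in log2 fold change (edgeR adjusted p = 0.108, SE 0.065). ETV4 KO replicate 1 lay among the controls. With its bin median of -0.07 as an offset Sesn1 passed, at 0.19 (edgeR adjusted p = 0.0133). Zmat3 (chromosome 3, 32334792 to 32366014), an RNA-binding zinc finger protein, had 28.7, 30.5 and 25.9 CPM in controls and 26.3, 26.7 and 26.2 CPM in ETV4 KO, or -0.11 in log2 fold change (edgeR adjusted p = 0.106, SE 0.059). Its spread lay in the controls. It passed in 3 of the 14 alternatives other than the bin offset: without control replicate 3 (-0.17, edgeR adjusted p = 0.02), with upper-quartile factors (-0.14, edgeR adjusted p = 0.0307) and with library size only (-0.16, edgeR adjusted p = 0.0185). With its bin median of -0.16 as an offset the sign turned, to 0.05 (edgeR adjusted p = 0.461).

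**Figure D2:**
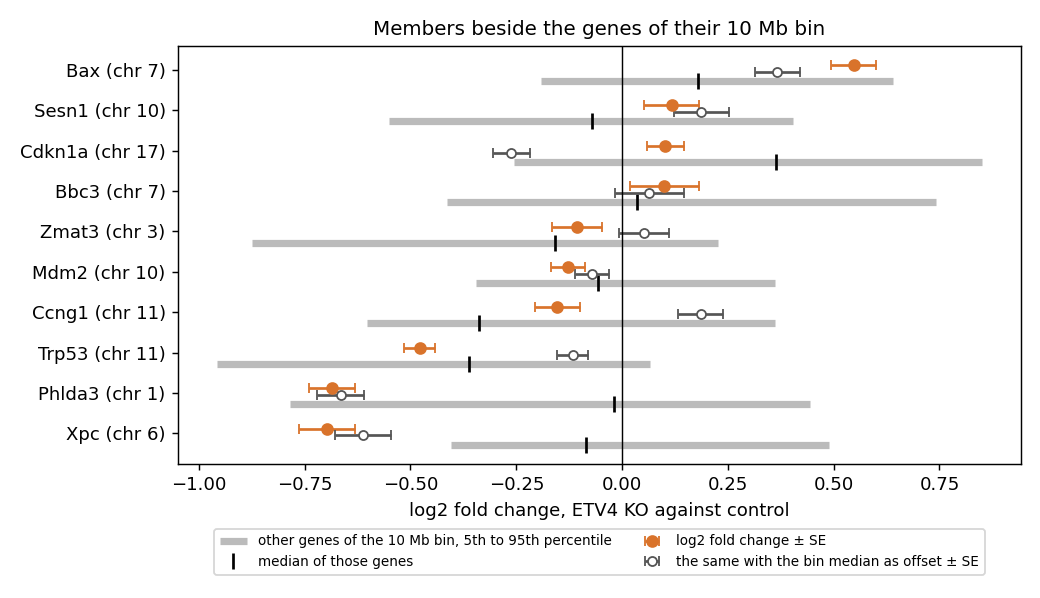
Log2 fold change of ETV4 KO against control (horizontal axis) for the 10 genes, as fitted (filled points, ± SE) and with the median of the other expressed genes of the 10 Mb bin as an offset (open points, ± SE); grey bars give the 5th to 95th percentile and black ticks the median of those genes. Trp53 moves from -0.48 to -0.12 and Cdkn1a from 0.10 to -0.26, while Phlda3, Xpc and Bax keep their direction.

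The sizes of the target changes were also summarised. The median log2 fold change of the 9 targets was -0.11 and the median absolute value 0.13, against -0.0038 and 0.285 over all tested genes; this difference was not tested, and Bax, Phlda3 and Xpc each lay above 0.285 in absolute value. The groups did not overlap for 2 targets that were higher and 3 that were lower, beside 36.1% higher and 36.6% lower, together 72.7%, of all tested genes. When the fold change was tested against 1.5 with edgeR's glmTreat, 0 of the 9 targets and not Trp53 passed an adjusted p under 0.05, where 13.9% of all tested genes did. At an unadjusted glmTreat p under 0.05 there were 2, Phlda3 (adjusted p = 0.0745) and Xpc (adjusted p = 0.0974). Phlda3 passed without ETV4 KO replicate 2 (adjusted p = 0.00872), and both passed with library size alone (0.00906 and 0.0188) and with upper-quartile factors (0.0168 and 0.0301).

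Scaled by exon length, the order of the transcripts changed between the groups. In controls Trp53 was highest with 28.5 RPKM ± 0.285 (TMM-scaled CPM divided by exon length in kilobases; SD, n = 3), and its range overlapped that of Phlda3 (28.2 RPKM ± 0.952), which overlapped Bax (25.8 RPKM ± 2.00). Mdm2 (18.2 RPKM ± 0.899) and Cdkn1a (16.4 RPKM ± 0.231) followed, then Ccng1 (11.2), Bbc3 (7.56), Sesn1 (5.55), Xpc (4.24) and Zmat3 (2.48), none of whose ranges overlapped that of the next. In ETV4 KO Bax led with 37.8 RPKM ± 2.29, above Trp53 with 20.4 RPKM ± 0.647. Cdkn1a (17.6 RPKM ± 0.829), Phlda3 (17.6 RPKM ± 1.33) and Mdm2 (16.7 RPKM ± 0.306) then overlapped their neighbours. The lower members kept their order, with Xpc at 2.61 RPKM just above Zmat3 at 2.31 RPKM. These levels use GENCODE M21 exon lengths, and the annotation behind the counts was not given in the sources used here.

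**Figure D3:**
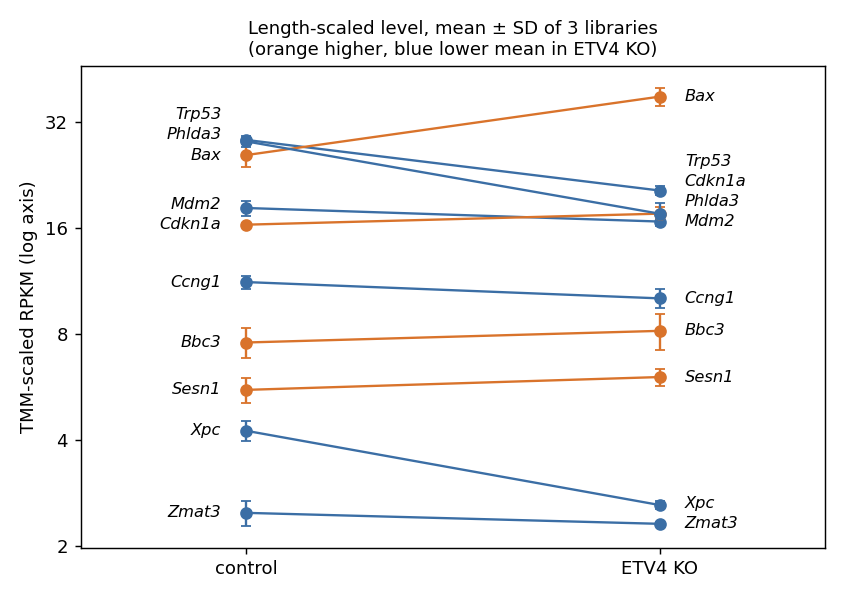
Length-scaled level (TMM-scaled RPKM, log axis) of the 10 genes in control and ETV4 KO, as the mean ± SD of 3 libraries, with lines joining the 2 means of a gene. Bax goes from 25.8 to 37.8 RPKM and passes Trp53, which goes from 28.5 to 20.4 RPKM.

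Ratios within a library do not depend on the scaling between libraries, and 5 were computed from the length-scaled levels. The ratio of Mdm2 to Trp53 was 0.659, 0.612 and 0.65 in controls and 0.8, 0.859 and 0.792 in ETV4 KO. That of Bax to Trp53 was 0.906 ± 0.0786 and 1.85 ± 0.13, and that of Bax to the anti-apoptotic gene Mcl1 was 0.352 ± 0.0227 and 0.541 ± 0.0364 (n = 3 each, SD). Phlda3 to Trp53 went from 0.991 ± 0.0434 to 0.861 ± 0.093 (n = 3 each, SD). Here control replicate 3 (0.9621) and ETV4 KO replicate 2 (0.9614) nearly met. For these 4 ratios the groups did not overlap, which gives an exact two-sided permutation p of 0.1 (adjusted p = 0.125), the smallest that 3 against 3 allows. For single genes the groups did not overlap in 72.7% of all tested genes. The ratios to Trp53 all carry its fall, so they are not independent. In log2 fold change, Mdm2 had -0.13 and Trp53 -0.48, and with the bin medians as offsets -0.07 and -0.12. The ratio of Bax to the anti-apoptotic gene Bcl2l1 was 1.38 ± 0.0904 and 1.35 ± 0.0668 (n = 3 each, SD; exact permutation p = 0.7), and its groups overlapped.

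The wider set of p53 targets also went both ways. In 5 lists of other targets, sorted by role, 59 of 67 genes in the table were tested; 24 rose, 24 fell and 11 did not pass, with a median log2 fold change of -0.02. The share called, 81.4%, stands beside the 71.1% of all tested genes, and 4 rose and 6 fell past 1.5-fold, beside 6.09% and 7.86%. With the bin medians as offsets 21 rose and 20 fell, beside 30.5% and 34.2% of all tested genes. The lists were drawn up with earlier results of these data known, so their counts are descriptions.

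Among other feedback targets 6 of 11 rose and 4 fell. Beside each list here stand the 35% higher and 36% lower of all tested genes. The polo-like kinase gene Plk2 rose from 109 CPM ± 0.854 to 164 CPM ± 2.22 (n = 3 each, SD), by 0.58 on the log2 scale, Plk3 by 0.31 and Zfp385a, which encodes a zinc finger partner of p53, by 1.43, while the phosphatase gene Ptp4a3 fell from 13.9 CPM ± 1.51 to 3.20 CPM ± 0.0215 (n = 3 each, SD), or -2.11 in log2 fold change. Among other arrest targets 4 of 10 rose and 3 fell: E2f7, a repressor of the E2F family, had 0.33, the mitotic gene Gtse1 0.42 and Btg2 0.36, and Tob1 had -0.38. Tob1 lies on chromosome 11 and had -0.02 with the bin median as an offset. Genes were named from both directions by rule, so the mix among those named is no result.

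Among other apoptosis targets 3 of 12 rose and 6 fell. For this list and those that follow, 35% of all tested genes were higher and 36% lower. Trp53i11 fell from 15.1 CPM ± 0.362 to 1.90 CPM ± 0.257 (n = 3 each, SD), or -2.996 in log2 fold change (edgeR adjusted p = 5.52e-20, SE 0.11), the largest fall among the target genes named. The BH3 protein gene Bid had -0.36 and the ribosomal protein paralogue Rps27l -0.25, and the ferrireductase gene Steap3 rose by 0.53. Pmaip1 and Eda2r had 0 counts in every library. Among repair and nucleotide supply targets 5 of 10 rose and 3 fell: Polh, the translesion polymerase eta, rose by 0.99 from 29.8 CPM ± 2.29 to 59.1 CPM ± 1.51 (n = 3 each, SD) and Pcna, the replication clamp, by 0.33, and the ribonucleotide reductase subunit gene Rrm2b had -0.30. With the bin medians as offsets Polh had 0.67 and Pcna 0.06. Among metabolic and redox targets 6 of 16 rose and 8 fell: Ddit4, an inhibitor of mTORC1, went from 319 CPM ± 11.7 to 125 CPM ± 14.4 (n = 3 each, SD), or -1.36 in log2 fold change, the ferredoxin reductase gene Fdxr had -0.86 (-0.37 with the bin median as an offset) and the AMPK subunit gene Prkab1 -0.28, and Sesn3 rose by 0.81.

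**Figure D4:**
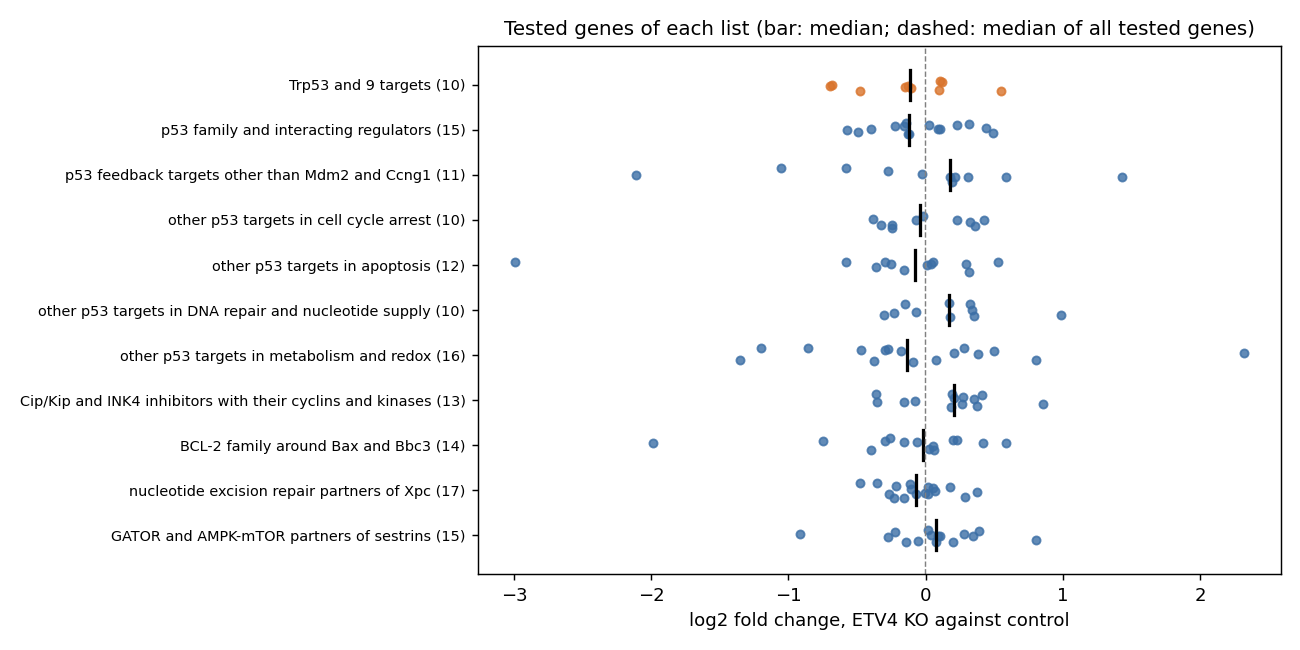
Log2 fold change of ETV4 KO against control (horizontal axis) for each tested gene of the 10 members (orange) and of 10 lists of p53 regulators, other targets and partners (blue; number of tested genes in brackets), with black bars for list medians and a dashed line for the median of all tested genes. Points lie on both sides of 0 in every list, and the median of the 10 members is -0.12.

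Regulators of p53 also went both ways. Of 15 tested members 5 rose and 7 fell, beside 35% and 36% of all tested genes, and with the bin medians as offsets 7 rose and 1 fell, beside 30.5% and 34.2%. The p53-binding protein gene Trp53bp1 went from 53.9 CPM ± 3.22 to 36.2 CPM ± 1.54 (n = 3 each, SD), or -0.57 in log2 fold change, and the deubiquitinase gene Usp7 had -0.22, which was 0.06 with the bin median as an offset. The checkpoint kinase gene Chek1 rose by 0.49, from 81.8 CPM ± 2.53 to 115 CPM ± 1.48 (n = 3 each, SD). The p53 relatives Trp63 and Trp73 had 3 and 0 counts over the 6 libraries, and Cdkn2a, which encodes the MDM2 inhibitor ARF, had 0.

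Lists of genes from the pathways of Bax and Bbc3, of Xpc and of the sestrins were mixed in the same way. The share called was 57.1% in the BCL-2 family list, 52.9% in the nucleotide excision repair list and 66.7% among sestrin partners, each below the 71.1% of all tested genes, a difference that was not tested. With the bin medians as offsets 3 rose and 7 fell, 2 rose and 8 fell, and 3 rose and 4 fell in these lists, in that order. Over all tested genes the offset gave 30.5% higher and 34.2% lower, and the fit without it 35% and 36%. In the BCL-2 family around Bax and Bbc3, 3 of 14 rose and 5 fell: the anti-apoptotic Bcl2l1 rose by 0.58, from 85.6 CPM ± 3.05 to 128 CPM ± 2.16 (n = 3 each, SD), while anti-apoptotic Bcl2 had -0.40, the initiator caspase gene Casp9 -0.75 and the BH3-only gene Bmf -1.99. Among nucleotide excision repair genes 3 of 17 rose and 6 fell: Rad23b, whose product binds XPC, had -0.27, the single-strand binding protein gene Rpa1 -0.35 (0.06 with the bin median as an offset), and Gtf2h1, a TFIIH subunit gene, rose by 0.29. Among GATOR, AMPK and mTOR partners of the sestrins 6 of 15 rose and 4 fell, with Sesn3 at 0.81, Rheb at 0.39, Tsc2 at 0.28 and Nprl3, on chromosome 11, at -0.92; with the bin medians as offsets Tsc2 had -0.08 and Nprl3 -0.54. The medians of these 3 lists were -0.02, -0.07 and 0.07.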

How the data were processed

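Raw read counts by gene symbol for the 6 libraries were deposited by the authors in 1 table; per the submitters' processing notes, FastQC 0.11.9, STAR 2.7.9a, R 4.1.1, featureCounts and the builds hg38 and mm10 were named, without roles. For annotation, strand setting and multiply mapped reads the settings were not given in the sources used here, so overlapping genes are uncertain; the kit was stranded, per the labels' protocols.

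Counts were fitted with edgeR 4.0.16 (limma 3.58.1, R 4.3.3): filterByExpr (minimum count 10, minimum total 15), TMM, glmQLFit and glmQLFTest on the group, with Benjamini-Hochberg adjustment over 12076 genes and a threshold of 0.05. SE is the absolute log2 fold change over the square root of F. Log2 CPM used a pseudocount of 0.5. Expressed genes had an edgeR log2 CPM above 3; positions came from GENCODE M21 (mm10), by symbol, for 30416 of 31017 genes, and bins with under 10 genes took the chromosome median. Members and lists were chosen with earlier results of these data known. From each list, the up to 3 called genes of lowest adjusted p in the commoner direction, and 1 in the rarer, were named, with genes overlapping or starting within 1000 bases of a member. Likeness in profile was sought for Trp53 and, by the largest fitted change, for Xpc; the order of Xpc and Phlda3 turned under some alternatives. Alternatives were other scalings, DESeq2 1.42.0, limma-voom, other filters, a replicate block, libraries left out, a threshold of 0.01 and the bin offset. Some genes that this rule names are left out here. The fit was tested on simulated counts for the same genes, of which 11876 of 12076 were left unchanged. It called 52% of the genes changed 1.2-fold, 78% of those changed 1.5-fold and 0.0427% of the unchanged genes. In the data 71.1% of genes were called, so these rates may not carry over.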

Additional observations from a re-analysis of the deposited data

How the results depend on the processing

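Trp53 stayed lower and called under all 16 alternatives, between -0.53 and -0.45 apart from the bin offset (-0.12). Bax, Phlda3 and Xpc also kept direction and call under each alternative run. The 2 targets called higher became 1, with Cdkn1a lost, under upper-quartile factors, library size only, DESeq2, the filter that asks for 1 CPM in 3 libraries and the threshold of 0.01; they ranged from 1 to 3 with a library left out, and those called lower from 3 to 5. With Zmat3 added, 5 were lower under upper-quartile factors and library size only. The 0 targets lower past 1.5-fold became 2 under upper-quartile factors and library size only, 1 under the replicate block, and 0 to 1 with a library left out; the causes were not tested. The genes called over the whole table with a library left out were 4028 to 4190 higher and 4111 to 4329 lower. The bin offset reversed Ccng1 (0.19), Cdkn1a (-0.26) and Zmat3 (0.051); the offset subtracts the local median by construction. With the replicate number as a block, 2 targets were higher and 4 lower, as without it, 4378 genes were higher and 4504 lower, and Trp53 had -0.48. Nothing in the labels says that the numbers pair the samples. Deviations from the group means correlated at 0.071, 0.0705 and 0.0186 for equal numbers, and at -0.0863 to 0.0199 for unequal numbers. ETV4 KO replicates 1 and 2 correlated best with the control of the same number, and ETV4 KO replicate 3 with control replicate 1 (0.0199). The listed genes that were not tested had 0 to 32 counts over the 6 libraries. The filter on low counts removed them from the main fit, so no change is given for them.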

Other observations

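In the list of Cip/Kip and INK4 inhibitors with cyclins and their kinases, 9 of 13 tested genes rose and 4 fell, beside 35% and 36% of all tested genes. With the bin medians as offsets 6 rose and 3 fell, beside 30.5% and 34.2%. The median log2 fold change was 0.21. Ccnd2, a D-type cyclin gene, rose by 0.86 from 11.4 CPM ± 0.455 to 20.8 CPM ± 1.38 (n = 3 each, SD), the kinase gene Cdk6 by 0.37 and the INK4 inhibitor gene Cdkn2d by 0.41. Cdkn1b, which encodes the Cdkn1a relative p27, went the other way, from 184 CPM ± 0.43 to 143 CPM ± 3.30 (n = 3 each, SD), or -0.36 in log2 fold change (edgeR adjusted p = 7.29e-11, SE 0.034). Cdkn1c had 3 counts over the 6 libraries and Cdkn2b had 0.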
